A study of Mus musculus with 12 samples.

Results

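Collagen genes were measured by RNA sequencing in 12 subcutaneous TRAMP-C2 tumors, a mouse prostate cancer line grown in male C57BL/6J mice aged 6 to 8 weeks. A gene was taken as a collagen chain gene when its mouse symbol was wholly of the form Col, a number, a and a number, which gave 44 of the 49315 gene identifiers in the count tables. The groups were HBSS (Hank's balanced salt solution, the vehicle; 3 doses of 50 µl), cyto-IL-15 (interleukin-15 modified to bind cell surfaces; 2 doses of 10 µg), ADU-S100 (an agonist of the innate immune sensor STING; 3 doses of 50 µg) and the combination of both agents. All doses went into tumors of about 200 mm3 that were started by injecting TRAMP-C2 cells, and tumors were removed on day 6. The groups held 3 tumors each, and values in threes are in the order 19, 22R and 22LL for HBSS, 9R, 13 and 20LL for cyto-IL-15, 17LL, 18R and 22LR for ADU-S100, and 20L, 22 and 28LL for the combination. Every mouse carried the same implanted line, no untreated tumor was included, and the labels do not say that the tumors came from separate mice, so that p-values measure the spread between these tumors only.

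Collagens are secreted proteins in which a set of chains winds into a triple helix, and most of them build the matrix outside cells. Fibrillar chains assemble into load-bearing fibers, network chains form the sheets of basement membranes, and smaller classes coat fibers, anchor epithelia or sit in cell membranes. In tumors, fibroblasts and perivascular cells are known producers of collagen, and cancer cells can add to it.

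Total counts ran from 48772204 to 103700199 per tumor, and 41 of the 44 collagen genes had at least 1 count in every tumor. Tumors 13 (cyto-IL-15) and 28LL (combination) stood apart. Their Pearson correlations of log2 CPM (counts scaled for the size of the library) with the other 10 tumors ran from 0.909 to 0.958, whereas those 10 correlated at 0.970 to 0.994 with each other. Tumors 13 and 28LL correlated least with one another, at 0.899. The fibroblast list other than collagens (12 genes, such as Pdgfra, a growth factor receptor) summed to 1004 CPM in tumor 13 and 2149.9 in 28LL, against 3929.8 to 7282 elsewhere. The epithelial list (5 genes, such as Krt8, a keratin) summed to 593 CPM in tumor 13, 177 in 22LL and 51.6 in 28LL, against 8.84 to 17.0 in the other 9. Skeletal muscle fiber markers (10 genes, such as Acta1, the actin of muscle fibers) summed to 9.24 to 12.1 CPM in HBSS tumors, 9.06 to 849.6 in cyto-IL-15 tumors, 167 to 2036 in ADU-S100 tumors and 63.3 to 4494 in combination tumors.

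Upstream sequences of 3 collagen genes are shown because the comparisons below turn on these genes, and because Col4a5 and Col4a6, which code for network chains of basement membranes, lie head to head on chromosome X and were close to a fixed ratio in most tumors. Sequences are from RefSeq promoter windows on GRCm38.p6, which were listed for 35 of the 44 genes in 38 windows. A window begins 250 bases before the start that RefSeq gives a transcript, and this start can differ from that of the gene in the count tables. Each sequence below, 5′ to 3′ on the gene's own strand, was therefore ended before the first start given by either annotation, which left 201, 231 and 246 bases. None was left for Col15a1, whose window lies inside the RefSeq gene. Capitals mark CCAAT or GGGCGG, the core of an Sp1 site, on either strand, and the letters shown for Col4a6 hold neither. TATAAA was also searched and matched in none of the 3. The last 2 GGGCGG matches of Col8a2 overlap each other.
Col4a5, chrX:141475169-141475369, plus strand: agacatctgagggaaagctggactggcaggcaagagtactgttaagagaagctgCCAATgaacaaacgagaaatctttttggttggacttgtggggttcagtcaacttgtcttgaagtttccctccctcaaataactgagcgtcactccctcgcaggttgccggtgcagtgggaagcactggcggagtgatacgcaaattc
Col4a6, chrX:141474096-141474326, minus strand: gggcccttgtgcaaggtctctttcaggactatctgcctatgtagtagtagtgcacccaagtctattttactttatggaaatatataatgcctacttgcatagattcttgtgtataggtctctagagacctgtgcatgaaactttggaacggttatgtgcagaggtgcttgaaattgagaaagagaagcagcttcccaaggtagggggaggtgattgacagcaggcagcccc
Col8a2, chr4:126286544-126286789, plus strand: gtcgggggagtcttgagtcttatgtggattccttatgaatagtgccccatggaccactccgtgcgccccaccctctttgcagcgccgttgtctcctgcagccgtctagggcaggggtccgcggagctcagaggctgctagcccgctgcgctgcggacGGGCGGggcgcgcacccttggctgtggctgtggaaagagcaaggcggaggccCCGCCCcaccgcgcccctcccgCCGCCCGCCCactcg
Over the first 246 bases of each RefSeq window, GGGCGG was present in 22 of the 38 collagen windows (57.9%) and in 32.2% of 32841 such windows across the genome. CCAAT was present in 13 collagen windows (34.2%) against 33.6%, and TATAAA in 5 (13.2%) against 12.3%. The median GC content was 58.7% for collagen windows and 52.0% for the whole set, and GGGCGG consists of G and C alone. These matches describe the letters in the windows only.

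Counts were normalized by edgeR's trimmed mean of M-values (TMM) and given as CPM. Mean levels over the 12 tumors spanned from under 1 CPM for 12 genes to over 1000 for 6 genes. Per kilobase of annotated exon, which allows different genes to be compared, Col1a1 was highest at 1098 CPM per kb, followed by Col1a2 (627), Col6a1 (472), Col3a1 (379) and Col6a2 (173). Col1a1 and Col1a2 code for the chains of type I collagen, the main fiber of connective tissue, and Col3a1 codes for its partner in soft tissue. Together these 3 genes took 61.0% to 78.1% of the normalized collagen counts in each tumor. The exon length of Col1a2 in the tables, 12.4 kb, exceeds the 6.56 kb of Col1a1, so that its level per kilobase depends on how much of that annotation is transcribed here.

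As a share of all counts, collagen genes took 3.49, 4.02 and 3.06% in HBSS tumors, 3.14, 1.89 and 3.18% in cyto-IL-15 tumors, 2.49, 3.16 and 2.95% in ADU-S100 tumors, and 2.20, 2.05 and 1.53% in combination tumors. Every tumor of the combination was below every HBSS tumor, cyto-IL-15 and ADU-S100 overlapped HBSS, and tumor 13 of cyto-IL-15 was as low as the combination. The summed normalized level was 35501 ± 5681 CPM (SD, n = 3) for HBSS, 27433 ± 5994 for cyto-IL-15, 28395 ± 4234 for ADU-S100 and 19114 ± 3311 for the combination. The combination mean was thus 0.538 of the HBSS mean. These sums are descriptions with no test, and all are relative to the total RNA of a tumor. In bulk tumor RNA, fewer collagen-producing cells, less collagen RNA per cell and more RNA from other cells cannot be told apart. The paper reports more necrosis in tumors given the STING agonist, alone or combined, than in vehicle tumors. The part of necrosis or of added RNA from other cells in these collagen levels was not tested.

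**Figure D1:**
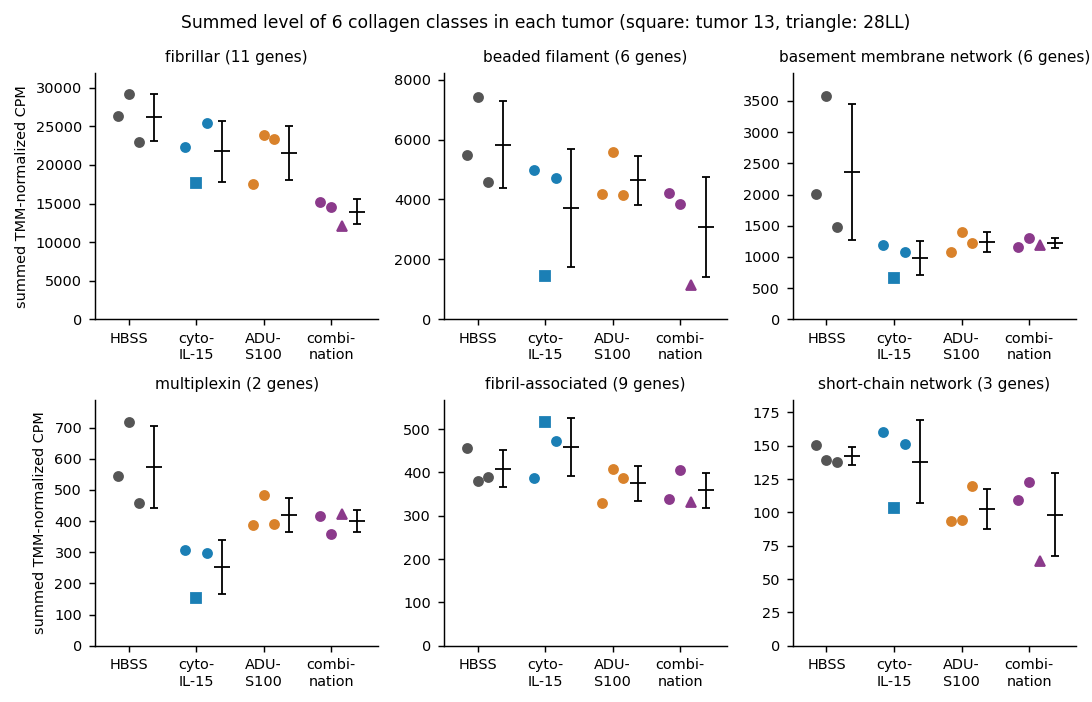
Summed TMM-normalized CPM of 6 collagen classes (y axes, from 0) for the 4 groups (x axes). Each point is a tumor, the square is tumor 13, the triangle is 28LL, and the black mark gives mean ± SD of 3 tumors. Fibrillar sums of the combination (12095 to 15165) sit below all 9 other tumors, basement membrane sums of HBSS (1479.5 to 3575) above all 9 others, and beaded filament sums are low in tumors 13 (1453) and 28LL (1162).

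Among fibrillar genes (11 genes), Col1a1 (chr11:94936224-94953042) was at 9551, 10441 and 8163 CPM under HBSS, 7339, 5460.1 and 8957 under cyto-IL-15, 6562, 8119 and 7798 under ADU-S100 and 4998, 5072 and 3977 under both agents. Col1a2, the class leader by CPM, was at 9099.8, 10853 and 8481 CPM under HBSS, 8857, 7558 and 9933 under cyto-IL-15, 6289, 8887 and 8851 under ADU-S100 and 5558, 5728 and 3361 under both agents. For both genes each combination tumor was below every tumor of the 3 other groups, and HBSS overlapped cyto-IL-15. Col3a1 showed the same order between HBSS and the combination, with 4867, 4899 and 4070.0 CPM against 2527, 2194 and 3567, whereas ADU-S100 spanned 2892, 4454 and 4298. Col5a2, a chain of type V collagen that helps start type I fibers, was at 837, 936 and 755 CPM under HBSS, 654, 689.8 and 781 under cyto-IL-15, 509.7, 752 and 923 under ADU-S100 and 576, 505 and 507 under both agents, so that the combination lay below HBSS and cyto-IL-15 in every tumor but overlapped ADU-S100. Of the remaining fibrillar genes, Col5a1 and Col5a3 ran from 421 to 1571 and from 168 to 439 CPM, Col27a1 and Col11a1 from 7.74 to 112 and from 8.02 to 47.6, and Col11a2 and Col24a1 from 2.69 to 5.60 and from 0.525 to 6.72. Col2a1, the cartilage fiber chain, did not exceed 0.313 CPM.

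In the basement membrane network (6 genes), Col4a1 (chr8:11198423-11312826) and Col4a2, the paired chains found in nearly every basement membrane, had similar profiles. Col4a1 was at 1074, 2000.0 and 771 CPM under HBSS, 586, 361 and 559 under cyto-IL-15, 583, 709.7 and 630.3 under ADU-S100 and 592, 656 and 684 under both agents. Tumor 22R held the highest level, and the 9 treated tumors all lay under the lowest HBSS tumor. Col4a5 and Col4a6, the chains of a rarer network, were at lower levels. Col4a5 (chrX:141475385-141689234) was at 74.8, 85.1 and 85.1 CPM under HBSS, 64.5, 48.3 and 61.0 under cyto-IL-15, 35.4, 60.8 and 47.9 under ADU-S100 and 44.9, 36.1 and 11.7 under both agents. Col4a6 (chrX:141165403-141474076) was at 14.96, 15.4 and 16.7 CPM under HBSS, 12.7, 0.0967 and 13.1 under cyto-IL-15, 7.11, 11.4 and 10.8 under ADU-S100 and 8.67, 7.09 and 1.72 under both agents. For both genes every treated tumor was below every HBSS tumor, tumor 28LL was lowest in Col4a5, and tumor 13 was lowest in Col4a6. Col4a3 and Col4a4, chains of the specialized kidney and lung network, stayed between 0.129 and 1.29 CPM.

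The multiplexins are basement membrane collagens that carry sugar chains and release fragments known to affect vessel growth. Col15a1 (chr4:47208161-47313167) was at 176, 216 and 129 CPM under HBSS, 65.4, 79.1 and 102 under cyto-IL-15, 90.1, 115 and 89.2 under ADU-S100 and 71.1, 68.0 and 126 under both agents, and all 9 treated tumors were under the lowest HBSS value. Col18a1, the source of endostatin, was at 369, 501 and 328 CPM under HBSS, 241, 73.2 and 195 under cyto-IL-15, 296, 369 and 303 under ADU-S100 and 345, 291 and 297 under both agents, so that the cyto-IL-15 tumors were below the tumors of all 3 other groups.

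Of the short-chain network (3 genes), which forms lattices beneath endothelium and cornea, Col8a1 led at 149, 138 and 137 CPM under HBSS, 157, 99.4 and 148 under cyto-IL-15, 92.8, 93.6 and 119 under ADU-S100 and 109, 122 and 62.3 under both agents. Col8a2 (chr4:126286793-126314330) had another pattern, at 1.49, 0.965 and 0.825 CPM under HBSS, 3.17, 3.42 and 3.00 under cyto-IL-15, 0.930, 0.496 and 1.23 under ADU-S100 and 0.559, 0.350 and 1.02 under both agents. The 3 cyto-IL-15 tumors, tumor 13 included, lay above all 9 others, whose highest value was 1.49 CPM. These levels came from 165 to 234 counts under cyto-IL-15 and 24 to 110 elsewhere. Col10a1, a marker of growth cartilage, was at 0.0327, 0.177 and 0.836 CPM under HBSS, 0.212, 0.193 and 0.179 under cyto-IL-15, 0.0137, 0.126 and 0.0224 under ADU-S100 and 0.0441, 0.0729 and 0.138 under both agents.

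**Figure D2:**
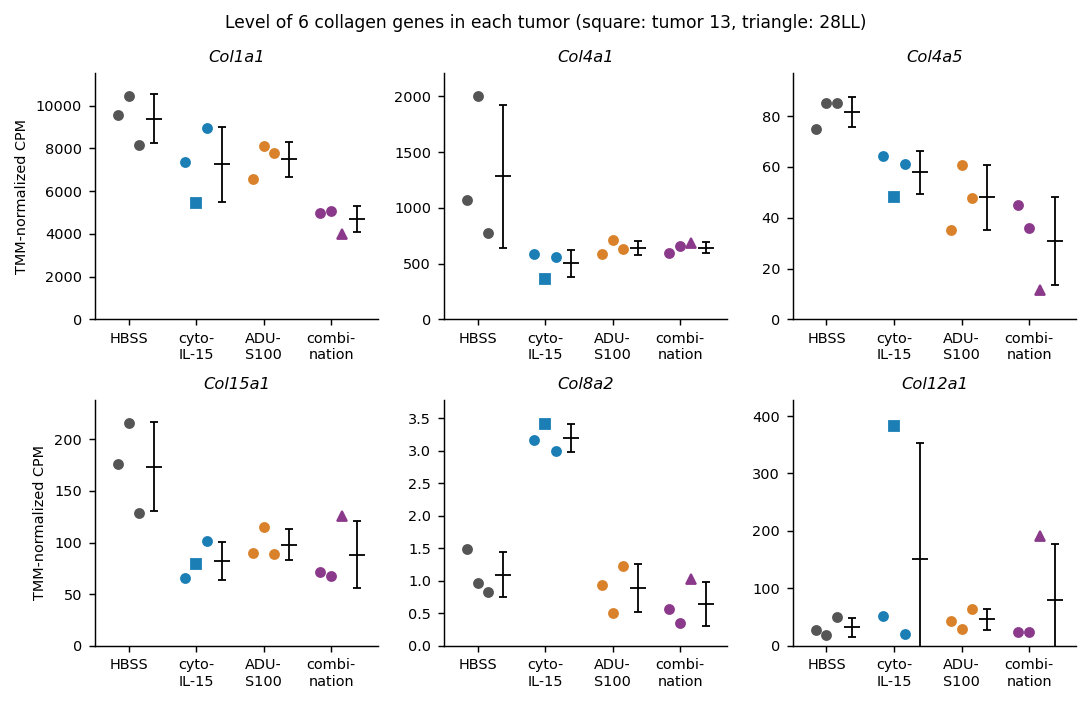
TMM-normalized CPM (y axes, from 0) of 6 collagen genes in the 4 groups (x axes). Points are tumors, the square is tumor 13, the triangle is 28LL, and black marks give mean ± SD of 3 tumors, with bars cut at 0. Col8a2 is at 3.00 to 3.42 CPM in the cyto-IL-15 tumors and 0.350 to 1.49 elsewhere, and Col12a1 is high in tumors 13 (383) and 28LL (192) only.

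Beaded filament genes (6 genes) code for type VI collagen, which links cells to the surrounding matrix. Col6a1 led at 2566, 3468 and 2160.2 CPM under HBSS, 2452, 496 and 2356 under cyto-IL-15, 2089.5, 2816 and 2084 under ADU-S100 and 2058, 1837 and 434 under both agents. The 2 low values were tumors 13 and 28LL, and the other 10 tumors ran from 1837 to 3468. Col6a2 ran from 390.4 to 2402 CPM, Col6a3 from 331.5 to 1516, and Col6a4 from 0.468 in tumor 13 to 57.3. Col6a5, a rarer chain, was at 1.95, 0.326 and 1.61 CPM under HBSS, 1.88, 0.145 and 0.449 under cyto-IL-15, 3.49, 0.943 and 1.73 under ADU-S100 and 0.486, 0.481 and 0.331 under both agents. Col6a6 did not exceed 0.827 CPM.

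Fibril-associated genes (9 genes) code for collagens that decorate fibers. Col16a1 led at 387, 333 and 304 CPM under HBSS, 305, 111 and 420.0 under cyto-IL-15, 249, 349.8 and 291 under ADU-S100 and 287, 342 and 108 under both agents, again lowest in tumors 13 and 28LL. Col12a1 ran the other way, with 383 CPM in tumor 13 and 192 in 28LL against 18.8 to 64.5 in the other 10 tumors. Col14a1 ran from 19.3 to 40.3 CPM and Col9a3 from 1.21 to 6.47, and Col20a1 stayed at 0.381 to 2.66. Col9a1, Col9a2, Col19a1 and Col22a1 did not exceed 0.639 CPM in any tumor. Col7a1, the anchoring fibril of skin, was at 31.3, 41.4 and 21.1 CPM under HBSS, 34.9, 185 and 17.3 under cyto-IL-15, 27.5, 20.9 and 27.6 under ADU-S100 and 23.2, 24.2 and 26.9 under both agents, and its high mean with cyto-IL-15 came from tumor 13. Among transmembrane collagens (4 genes), Col23a1 led at 5.47, 1.33 and 3.64 CPM under HBSS, 11.7, 3.40 and 6.55 under cyto-IL-15, 6.64, 8.52 and 6.72 under ADU-S100 and 9.61, 5.69 and 19.1 under both agents. Col13a1 and Col17a1, found at cell contacts, ran from 0.365 to 4.13 and from 0.583 to 4.09 CPM, and Col25a1 did not exceed 0.769. Col28a1, known from Schwann cells, was at 3.55, 5.23 and 2.62 CPM under HBSS, 1.02, 0.613 and 3.03 under cyto-IL-15, 1.41, 0.816 and 2.69 under ADU-S100 and 0.809, 1.09 and 5.87 under both agents, and Col26a1 did not exceed 0.530.

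**Figure D3:**
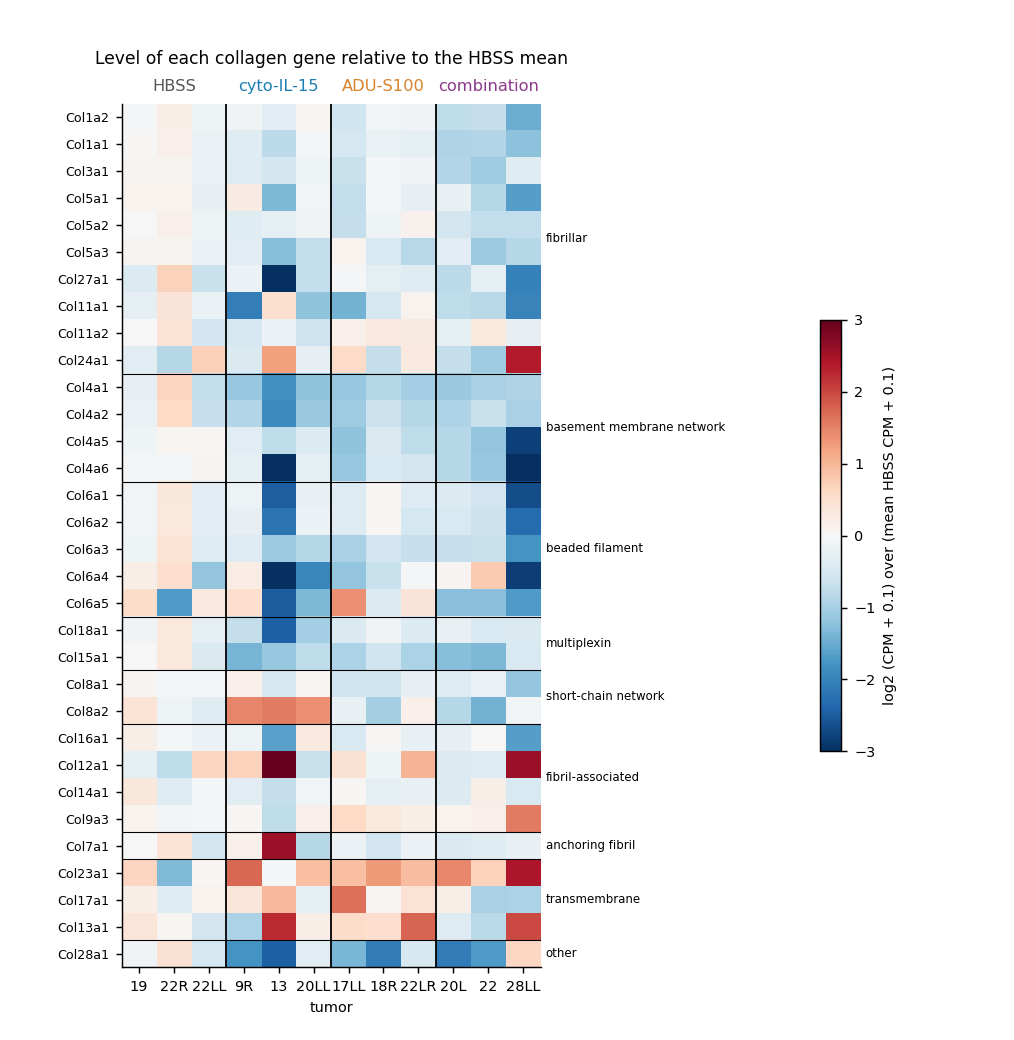
Each cell is the log2 ratio of a tumor's CPM + 0.1 to the mean HBSS CPM + 0.1, for the 32 collagen genes (rows, by class) whose mean reached 1 CPM, in the 12 tumors (columns, by group). Blue is below and red above the HBSS mean, with the scale ending at 3 in both directions. Rows Col4a1 to Col4a6 and Col15a1 are below the HBSS mean in all 9 treated tumors, Col8a2 is red in the 3 cyto-IL-15 tumors, and the 7 lowest cells are in columns 13 and 28LL.

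The groups were then compared in pairs with edgeR's quasi-likelihood test, each on its own 6 tumors, and a gene was called at an adjusted p (Benjamini-Hochberg over all genes tested) under 0.05 with an absolute log2 fold change above 1. Log2 fold changes are the second group over the first. Of the 44 collagen genes, 38 passed the filter on low counts in all 6 comparisons. Col10a1 passed in 4, Col22a1 in 3, Col2a1 and Col26a1 in 2, and Col9a1 and Col19a1, with at most 12 and 19 counts in a tumor, in none. No collagen gene was called in any of the 6 comparisons by edgeR, and the values below give what each comparison showed at weaker limits and with DESeq2.

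ADU-S100 against HBSS asked what STING activation alone did. Basement membrane collagens had the smallest p-values, with Col4a5 at -0.75 ± 0.17 (SE) on the log2 scale (adjusted p = 0.0381, edgeR) and Col15a1 at -0.80 ± 0.19 (SE) (adjusted p = 0.0420). Both passed the adjusted p but not the fold limit, against 3.78% of genes higher and 2.41% lower at the adjusted p alone, and in both all 3 ADU-S100 tumors were below all 3 HBSS tumors. Over the alternative settings their adjusted p ran from 5.7e-05 to 0.608 and from 3.8e-05 to 0.429. Next came Col8a1 at -0.45 ± 0.12 (SE), Col4a6 at -0.67 ± 0.18 (SE) and Col6a3 at -0.71 ± 0.20 (SE), with adjusted p of 0.0585, 0.0614 and 0.0684, none past the limit in edgeR. Col4a1 differed by -0.98 ± 0.32 (SE) (adjusted p = 0.124, edgeR). Type I collagen differed less, with Col1a1 at -0.31 ± 0.14 (SE) and Col1a2 at -0.23 ± 0.16 (SE).

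Of 40 collagen genes tested in this comparison, 0 were called by edgeR, against 2.75% of 18911 genes called higher and 0.777% called lower. At an unadjusted p under 0.05, 9 were lower and 2, Col13a1 and Col23a1, were higher, against 11.4% lower and 12.6% higher of all genes. DESeq2 on the same tumors called 3, with Col4a1 and Col28a1 lower and Col23a1 higher, against 3.90% higher and 1.68% lower of its genes. In 8 genes (20.0%) every ADU-S100 tumor was below every HBSS tumor, against 15.4% of all genes, and in 3 (7.50%) the reverse held, against 15.8%. The median log2 fold change was -0.28 over the collagen genes tested and 0.03 over all genes tested.

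Markers of other cell types moved in the same comparison. Pericyte markers Rgs5 at -1.67 ± 0.26 (SE), Abcc9 at -2.09 ± 0.32 (SE) and Kcnj8 at -1.56 ± 0.32 (SE) were called lower (edgeR adjusted p of 0.0149, 0.0149 and 0.0316). With Des, a muscle filament, called higher, 4 of the 10 genes of the pericyte and smooth muscle list were called, and its summed level was 366 to 592 CPM with HBSS and 383 to 655 with ADU-S100. Of 10 endothelial genes 0 were called by edgeR or DESeq2, with 1 higher and 1 lower at an unadjusted p under 0.05 and sums of 486 to 1026 and 682 to 734 CPM. Of the 12 genes of the fibroblast list, only Ly6c1 and Thy1 were called, both higher, at 1.63 ± 0.19 (SE) and 1.08 ± 0.17 (SE). The list sums overlapped, at 4475 to 7282 CPM with HBSS and 3929.8 to 6118 with ADU-S100. Which cells carried the Ly6c1 and Thy1 RNA was not tested. Of 10 muscle fiber genes edgeR called 4 higher and DESeq2 called 10, and Tnnc2 and Mb, defining muscle genes, did not exceed 0.0272 CPM in HBSS tumors and were at 0 in tumor 19. Tnnc2 and Mb thus passed the filter on low counts through the ADU-S100 tumors alone. Of the 10 muscle genes only 7 passed this filter for cyto-IL-15 against HBSS, so that more of them may have passed here through the ADU-S100 tumors. The higher direction of such genes was partly set by the filter. Of 6 macrophage genes Lyz2 and Mrc1 were called lower, at -1.35 ± 0.12 (SE) and -1.53 ± 0.25 (SE), with sums of 3338 to 3922 and 1825 to 2229.6 CPM. At the adjusted p alone 3 macrophage genes were lower and 1 was higher, against 2.41% and 3.78% of all genes. The part of these cell types in the collagen values was not tested.

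For the combination against HBSS, fibrillar genes had the smallest p-values. Col1a1 differed by -0.98 ± 0.17 (SE) (unadjusted p = 9.3e-04, adjusted p = 0.185, edgeR) and Col5a2 by -0.64 ± 0.15 (SE) (unadjusted p = 0.00373, adjusted p = 0.185). Col1a2 differed by -0.93 ± 0.24 (SE) and Col3a1 by -0.71 ± 0.22 (SE), with adjusted p of 0.191 and 0.214. Basement membrane genes differed by -1.38 ± 0.46 (SE) for Col4a5, -0.96 ± 0.35 (SE) for Col4a1 and -0.94 ± 0.31 (SE) for Col15a1. In these genes all combination tumors were below all HBSS tumors, and none passed the adjusted limit. Col23a1 was higher in every combination tumor, at 1.75 ± 0.65 (SE) (adjusted p = 0.245, edgeR).

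Here edgeR called 0 of 40 collagen genes, and also 0.0% of 18565 genes in each direction. At an unadjusted p under 0.05, 12 collagen genes were lower and 1 was higher, against 7.17% and 11.0% of all genes. In 15 genes (37.5%) every combination tumor was below every HBSS tumor, against 16.4% of all genes, and in 1 (2.5%), Col23a1, every one was above, against 13.9%. The 15 were Col1a1, Col1a2, Col3a1, Col5a2, Col5a3, Col11a1, Col4a1, Col4a5, Col4a6, Col6a1, Col6a2, Col6a3, Col8a1, Col9a2 and Col15a1. DESeq2 on the 6 tumors called 0 of the collagen genes, against 4.45% of its genes called higher and 1.06% lower. Col1a1, Col5a2 and Col1a2 were lower past its adjusted p but not the fold limit, against 1.98% of its genes lower and 4.66% higher at the adjusted p alone. DESeq2 on 12 tumors called Col4a5 lower and Col23a1 higher, against 0.582% of genes lower and 4.34% higher. The median log2 fold change was -0.67 over the collagen genes tested and 0.01 over all genes tested.

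Whether genes were called in this comparison depended on tumor 28LL. Without it, with HBSS and the other 2 combination tumors alone, edgeR called Col15a1 and Col28a1 lower, against 0.968% of 19000 genes called higher and 0.332% called lower. Without tumors 13 and 28LL, in a fit of the other 10 tumors, Col15a1 at -1.31 ± 0.23 (SE, adjusted p = 0.0205, edgeR) and Col4a5 at -1.0, just past the fold limit, ± 0.20 (adjusted p = 0.0278) were called lower, against 1.21% higher and 0.314% lower of 20675 genes. Col1a1, Col3a1 and Col4a6 passed the adjusted p below the fold limit there, at -0.89, -0.95 and -0.98. At the adjusted p alone that fit had 0.837% of genes lower and 1.54% higher. Over the alternatives run, the adjusted p ran from 0.0205 to 0.558 for Col15a1, from 0.0211 to 0.553 for Col4a5 and from 3.3e-04 to 0.553 for Col1a1. Of the cell type lists edgeR called 0 genes in this comparison. Muscle fiber genes were higher in 10 of 10 at an unadjusted p under 0.05, and pericyte genes were lower in 4 and higher in 1 of 10. Of 12 fibroblast genes 2 were higher and 2 lower at that limit, with sums of 4475 to 7282 CPM in HBSS tumors and 2149.9 to 4549 in combination tumors, and macrophage genes were higher in 1 and lower in 2 of 6. Endothelial genes had 0. DESeq2 on 6 tumors called 10 muscle, 1 pericyte and 1 fibroblast gene higher, and 2 pericyte, 1 fibroblast and 1 macrophage gene lower. Tnnc2 and Mb again passed the filter on low counts through the treated tumors alone, and other muscle genes may have done so. The higher direction of such genes was partly set by the filter. The muscle list had its highest sum, 4494 CPM, in tumor 28LL, and the part of these cell types in the collagen values was not tested.

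**Figure D4:**
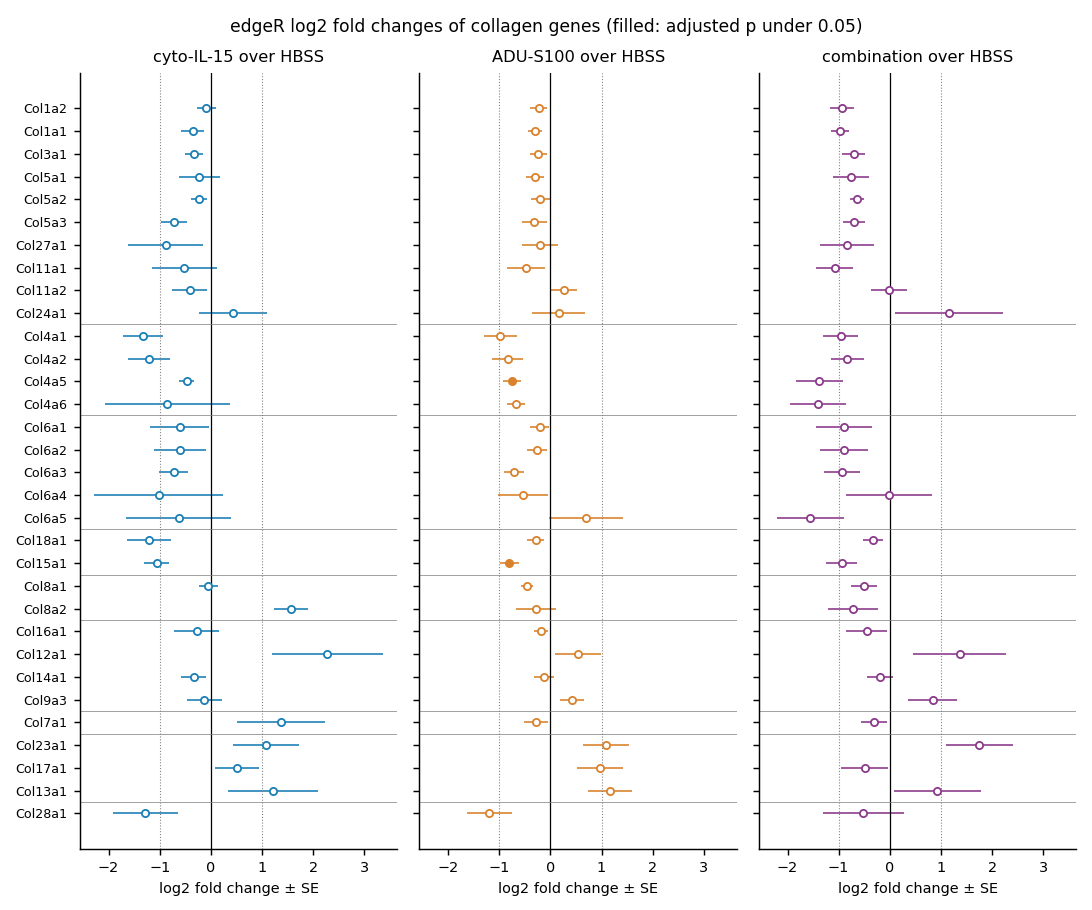
Log2 fold change over HBSS ± SE (x axes, dotted lines at -1 and 1) of the 32 collagen genes whose mean reached 1 CPM, in edgeR's fits of cyto-IL-15, ADU-S100 and the combination. Filled points have an adjusted p under 0.05, which only Col4a5 (-0.75) and Col15a1 (-0.80) reach, both with ADU-S100.

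For cyto-IL-15 against HBSS, basement membrane collagens and multiplexins were at lower values. Col15a1 differed by -1.06 ± 0.24 (SE) (unadjusted p = 0.00375, adjusted p = 0.898, edgeR), Col4a1 by -1.33 ± 0.39 (SE), Col4a2 by -1.21 ± 0.40 (SE) and Col18a1 by -1.21 ± 0.44 (SE), all with the same adjusted p. Col8a2 stood on the other side, at 1.57 ± 0.33 (SE) (unadjusted p = 0.00270, adjusted p = 0.898, edgeR). Of the type I chains, Col1a1 was at -0.35 ± 0.23 (SE) and Col1a2 at -0.09 ± 0.19 (SE). Of 39 collagen genes tested edgeR called 0, as it did for 0.0% of 18594 genes in each direction. At an unadjusted p under 0.05, 8 were lower and 1 was higher, against 1.67% and 2.13% of all genes. DESeq2 called 1 on the 6 tumors, Col8a2 higher (adjusted p = 0.00227), against 0.511% of its genes, and 1 on the 12, Col4a1 lower, against 0.124% of its genes. The adjusted p of Col8a2 ran from 0.00227 to 1.000 over the alternatives.

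In 9 of the 39 genes (23.1%) every cyto-IL-15 tumor was below every HBSS tumor, against 6.17% of all genes. They were Col4a1, Col4a2, Col4a4, Col4a5, Col4a6, Col5a3, Col6a3, Col15a1 and Col18a1, and only Col8a2 (2.56%) was above, against 4.38%. The same direction held for Col15a1 and Col4a1 when either group lost any of its tumors, at -1.24 to -0.89 and -1.59 to -0.87. The endothelial list summed to 695, 1026 and 486 CPM with HBSS and 462, 257 and 531 with cyto-IL-15, and the pericyte and smooth muscle list to 432, 592 and 366 and 314, 336 and 273. Tumor 22R was the highest of these 6 tumors in both lists and in Col4a1, Col4a2, Col15a1 and Col18a1. Of 10 endothelial genes 0 were called by edgeR or DESeq2, and 2 were lower at an unadjusted p under 0.05. Of 10 pericyte and smooth muscle genes edgeR called 0, while 3 were called lower by DESeq2 on these tumors, against 0.122% of its genes. At an unadjusted p under 0.05, 5 were lower and 1 higher, against 1.67% and 2.13% of all genes. Of 7 muscle fiber genes tested edgeR called 0, with 7 higher at an unadjusted p under 0.05, and DESeq2 called 6 higher, against 0.511% of its genes. The rest of the 10 genes did not pass the filter on low counts. The muscle list summed to 9.24 to 12.1 CPM with HBSS and to 849.6, 9.06 and 350.7 with cyto-IL-15. Tumor 13 thus did not share the higher level of 9R and 20LL. The part of vessel or muscle cells in these collagen values was not tested.

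Between the treated groups, Col8a2 had the smallest p-value in both comparisons with cyto-IL-15. It was at -1.88 ± 0.42 (SE) for ADU-S100 over cyto-IL-15 (unadjusted p = 0.00288, adjusted p = 0.357, edgeR) and at -2.30 ± 0.53 (SE) for the combination over cyto-IL-15 (unadjusted p = 0.00376, adjusted p = 0.785). DESeq2 called it lower in both. The fits on 6 and on 12 tumors called 0.324% and 0.35% of genes lower for ADU-S100 over cyto-IL-15, and 0.0559% and 0.519% for the combination over cyto-IL-15. Its adjusted p over the alternatives ran from 0.00107 to 0.923 and from 1.2e-04 to 0.985. For ADU-S100 over cyto-IL-15 edgeR called 0 of 39 collagen genes, against 0.0855% higher and 0.0% lower of 18708. At an unadjusted p under 0.05, Col8a2 was the 1 gene lower and 0 were higher, against 4.01% and 3.84% of all genes, and Col10a1 followed at -1.79 ± 0.78 (SE) (unadjusted p = 0.0559). Groups did not overlap for 3 genes higher, Col9a3, Col11a2 and Col18a1 (7.69% against 9.30% of all genes), and for 2 lower, Col8a2 and Col10a1 (5.13% against 7.42%). Col10a1 had only 11, 12 and 14 counts under cyto-IL-15 and 1, 13 and 2 under ADU-S100. It passed the filter on low counts through the cyto-IL-15 tumors, so that its direction here was partly set by the filter.

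For the combination over cyto-IL-15 edgeR called 0 of 41 collagen genes and 0.0% of 18619 genes. Type I collagen was at lower values, with Col1a2 at -0.84 ± 0.28 (SE) (unadjusted p = 0.0197) and Col1a1 at -0.62 ± 0.26 (SE) (unadjusted p = 0.0469), both with an edgeR adjusted p of 0.785. These and Col8a2 were the 3 collagen genes lower at an unadjusted p under 0.05, against 1.85% of all genes, and 0 were higher, against 3.13%. DESeq2 called Col8a2 alone. No overlap was seen for 6 genes lower, Col1a1, Col1a2, Col5a2, Col4a5, Col8a2 and Col10a1 (14.6% against 6.87%), and for 2 higher, Col4a1 and Col18a1 (4.88% against 5.89%). Col10a1, at 3, 5 and 10 counts in the combination tumors, again passed the filter through the cyto-IL-15 tumors, which partly set its direction.

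For the combination over ADU-S100 type I collagen again came near the top. Col1a1 was at -0.67 ± 0.17 (SE) (unadjusted p = 0.00664, adjusted p = 0.884, edgeR) and Col1a2 at -0.70 ± 0.26 (SE) (unadjusted p = 0.0307). Col6a5, present at 0.331 to 0.486 CPM in the combination, had the smallest p at -2.25 ± 0.56 (SE) (unadjusted p = 0.00551). No collagen gene of 40 was called by edgeR or by DESeq2, and edgeR called 0.0% of 18689 genes. These 3 were lower at an unadjusted p under 0.05, against 1.86% of all genes, and 0 were higher, against 2.43%. With Col6a1 they were the 4 genes (10.0%) in which every combination tumor was below every ADU-S100 tumor, against 6.27% of all genes. None was above, against 4.51%.

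Taking the 6 tumors given ADU-S100 against the 6 that were not, with cyto-IL-15 as a covariate, edgeR called 0 of 42 collagen genes, against 1.06% higher and 0.175% lower of 19381. Col1a1 was at -0.47 ± 0.14 (SE) (unadjusted p = 0.00563, adjusted p = 0.0929, edgeR) and Col4a5 at -0.83 ± 0.26 (SE) (adjusted p = 0.107). At an adjusted p under 0.05 without a fold limit 0 collagen genes passed, against 1.17% of genes higher and 0.485% lower, and at an unadjusted p under 0.05 there were 7 lower and 1 higher (Col9a3), against 9.99% and 11.4%. Without tumors 13 and 28LL, Col4a5, Col4a6, Col8a1 and Col1a1 passed the adjusted p below the fold limit, at -0.70, -0.68, -0.43 and -0.45, beside 3.40% of genes lower and 3.99% higher at that limit. DESeq2 on 12 tumors called Col8a2 lower, against 1.2% of genes lower and 3.81% higher. Col1a1 and Col4a5 passed its adjusted p but not the fold limit, at -0.48 and -0.84 (DESeq2 adjusted p of 0.0272 and 0.0396). At the adjusted p alone that fit had 3.28% of genes lower and 5.2% higher. The interaction asks whether the ADU-S100 difference changed when cyto-IL-15 was present. Of 43 collagen genes 0 were called by edgeR or DESeq2, and edgeR called 0.0% of 20132 genes. At an unadjusted p under 0.05 edgeR had 4 positive values, for Col4a1, Col4a2, Col18a1 and Col15a1, and 2 negative, for Col8a2 and Col17a1, against 0.993% and 1.30% of all genes. Col8a2 was at -2.03 ± 0.64 (SE) (unadjusted p = 0.00932) and Col4a1 at 1.34 ± 0.43 (SE) (unadjusted p = 0.00969), both with an adjusted p of 1.

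Pairs of collagen chains, most of which form 1 protein, were compared as ratios of CPM per kilobase. Col4a1 to Col4a2 ran from 0.956 to 1.23 in the 12 tumors, and Col6a1 to Col6a2 from 2.12 to 2.98. Col1a1 to Col1a2 ran from 1.37 in tumor 13 to 2.24 in 28LL, with the other 10 at 1.57 to 1.99. Col4a6 to Col4a5, the head-to-head pair whose upstream sequences are shown above, was at 0.153 to 0.189 in 10 tumors, whatever the group. It was 0.124 in tumor 28LL and 0.00169 in tumor 13, where Col4a6 was at 0.0967 CPM while Col4a5 kept 48.3. Col6a3 to Col6a1 was 0.395 in tumor 13 and 0.279 in 28LL against 0.0990 to 0.160, and Col5a1 to Col5a2 was 0.840 and 0.938 against 1.35 to 2.71. Col12a1 to Col1a1, chains of different collagens, was 0.0302 and 0.0208 against 0.000775 to 0.00357.

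**Figure D5:**
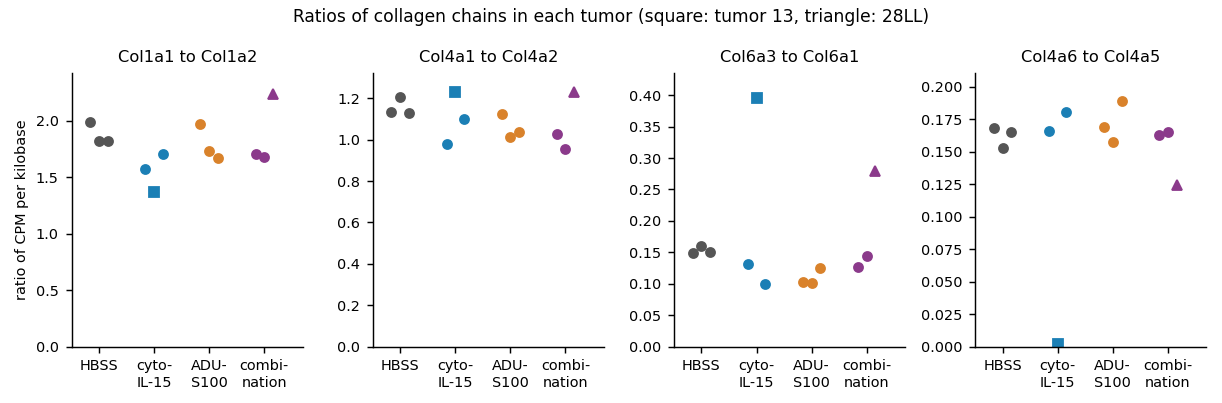
Ratio of CPM per kilobase (y axes, from 0) for 4 pairs of collagen chains in the 4 groups (x axes). Points are tumors, the square is tumor 13 and the triangle 28LL. Col4a1 to Col4a2 stays at 0.956 to 1.23, Col6a3 to Col6a1 is highest in tumors 13 (0.395) and 28LL (0.279), and Col4a6 to Col4a5 is 0.00169 in tumor 13.

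Tumors 13 and 28LL, which came from different groups and correlated least with one another over all genes, lay on the same side of the other 10 in some collagen genes. Of 43 collagen genes both were below the other 10 tumors in 10, against 10.7% of 20132 genes, and the 10 were Col4a6, Col5a1, Col6a1, Col6a2, Col6a3, Col6a4, Col9a2, Col14a1, Col16a1 and Col27a1. In 4, Col12a1, Col13a1, Col20a1 and Col24a1, both were above, against 7.05%. They differed from each other in Col7a1 (185 and 26.9 CPM), Col18a1 (73.2 and 297) and Col11a1 (47.6 and 8.47). The small leucine-rich proteoglycans, which bind collagen fibers, summed to 1324 CPM in tumor 13 and 2096 in 28LL, against 5440.4 to 8688 in the other 10.

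Genes that make, process or bind collagen were examined as lists. Of 20 genes for collagen synthesis and folding, such as Serpinh1, the collagen chaperone, edgeR called 0 in each comparison. DESeq2 on 6 tumors also called 0, and at an unadjusted p under 0.05 there were 3 higher with ADU-S100, against 12.6% of all genes, and 4 lower in the combination, against 7.17%. The summed level was 3779.7 to 4626 CPM for HBSS, 3616 to 3778 for cyto-IL-15, 4113 to 4611 for ADU-S100 and 2679.5 to 4084 for the combination. In the combination the smallest p against HBSS in this list was that of Fkbp14, a folding enzyme, at -0.86 ± 0.24 (SE) (adjusted p = 0.194). Among 13 genes for processing and crosslinking, Pcolce2, an enhancer of procollagen cleavage, was called lower with ADU-S100 at -1.40 ± 0.24 (SE) (adjusted p = 0.0161, edgeR). It was at 14.5, 19.8 and 9.76 CPM under HBSS, 7.81, 24.2 and 7.84 under cyto-IL-15, 5.70, 5.07 and 5.65 under ADU-S100 and 7.33, 16.4 and 6.23 under both agents, so that tumors 13 and 22 were high in their groups. Loxl4, a crosslinking oxidase, was at -0.50 ± 0.12 (SE) (adjusted p = 0.0407), below the fold limit. Among 6 collagenolytic enzymes Mmp8, the collagenase of neutrophils, was called higher with ADU-S100 at 5.26 ± 0.79 (SE) (adjusted p = 0.0170). It was at 0.0982, 0.272 and 0.231 CPM under HBSS, 0.385, 0.983 and 0.115 under cyto-IL-15, 4.10, 3.36 and 16.1 under ADU-S100 and 5.19, 2.06 and 19.3 under both agents, and all 6 tumors given ADU-S100 were above the other 6. Its value against HBSS in the combination was 5.48 ± 1.01 (SE) (adjusted p = 0.185), not past the limit in edgeR. In both comparisons Mmp8 passed the filter on low counts through the tumors given ADU-S100, so that its direction was partly set by the filter. Of these 6 enzymes DESeq2 on 6 tumors called 1 higher with ADU-S100 and 2 in the combination, against 3.90% and 4.45% of its genes. Of 10 collagen receptors edgeR and DESeq2 called 0 against HBSS, with 1 higher and 1 lower at an unadjusted p under 0.05 with ADU-S100, the lower being Ddr2, a collagen-binding kinase, at -0.34 ± 0.10 (SE) (adjusted p = 0.0771). Of 8 small leucine-rich proteoglycans edgeR called 0. In the combination against HBSS 4 were lower at an unadjusted p under 0.05, with Aspn, asporin, at -1.53 ± 0.38 (SE) (adjusted p = 0.191), and DESeq2 on 6 tumors called 3 lower.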

How the data were processed

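RNA was sequenced from 12 tumors, 3 per group. Raw read counts per gene, with no normalization, were deposited by the authors, whose processing notes name bcl2fastq, Trimmomatic, STAR and Subread's featureCounts on mm10 (GRCm38). The strand setting is not given in the sources used here, and reads of overlapping antisense genes could then not be told apart. No collagen gene had over 10% of its exon bases in exons of other genes. Gene symbols came from a table pairing Ensembl identifiers with symbols, which named 48970 of 49315 identifiers.

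Counts were filtered with filterByExpr (minimum count 10, minimum total 15), normalized by TMM and tested with edgeR's quasi-likelihood test (edgeR 4.0.16, R 4.3.3), with Benjamini-Hochberg adjustment over all genes tested, on the 6 tumors of each pair and on all 12 for the pooled ADU-S100 effect and the interaction. The scripts were tested on simulated data whose spread between tumors was lower than in the pooled and interaction fits here. Alternatives were DESeq2 1.42.0 on 6 or 12 tumors, edgeR on 12 tumors for each pair, size factors by relative log expression in place of TMM, and no filter. Others were no fold limit, leaving out each tumor, and leaving out tumors 13 and 28LL. The 2 genes per pairwise comparison, those with the smallest p, and the leading gene of each class were named by rule, and others were named for their class or for a count of members. The collagen genes, the gene lists and the tests were chosen with earlier results of these data known. Levels are means ± SD, and differences are log2 fold changes ± SE. Depth limited genes under 1 CPM. Counting used reads, not molecules. The prostate lineage markers are not reported here.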

Additional observations from a re-analysis of the deposited data

Results flagged for a closer look

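Col4a1 had log2 fold changes of opposite sign for the same addition of ADU-S100, which marked it for a closer look. Against HBSS its log2 fold change was -0.98, with every ADU-S100 tumor below every HBSS tumor, and against cyto-IL-15 the combination was at 0.37, with every combination tumor above every cyto-IL-15 tumor. The difference was tested as the interaction over the 12 tumors, which gave 1.34 with an unadjusted p of 0.00969 and an edgeR adjusted p of 1, and so did not pass. Groups of 3 tumors are too small for the search for a sample far from the others.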

How the results depend on the processing

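The count of collagen genes called by edgeR was 0 in all 8 fits, and other settings moved it in 6 of them. For cyto-IL-15 against HBSS, DESeq2 called 1 on 6 tumors (Col8a2, higher) and 1 on 12 (Col4a1, lower). The shares of all genes called in those directions were 0.511% and 0.124%. For ADU-S100 against HBSS, 2 were called with no filter on low counts (Col13a1 higher, Col28a1 lower), against 1.84% of 37685 genes higher and 0.807% lower. In the same comparison 3 were called by DESeq2 on 6 tumors (Col23a1 higher, Col4a1 and Col28a1 lower) and 2 with no fold limit (Col4a5 and Col15a1, lower). For the combination against HBSS, DESeq2 on 12 tumors called 2 (Col23a1 higher, Col4a5 lower), edgeR without tumors 13 and 28LL called 2 (Col4a5 and Col15a1, lower), and leaving out 1 tumor at a time gave 0 to 2, the 2 without tumor 28LL being Col15a1 and Col28a1. DESeq2 called 1 gene, Col8a2, lower on 6 and on 12 tumors for ADU-S100 and for the combination against cyto-IL-15, and 1, Col8a2, lower for the pooled effect. The causes were not tested. Of the gene values named, directions turned only for cyto-IL-15 against HBSS. Without tumors 13 and 28LL, Col7a1 was at -0.25, Col16a1 at 0.0915 and Col8a1 at 0.12 on the log2 scale. With 1 tumor left out at a time, they ran from -0.24 to 1.85, from -0.68 to 0.10 and from -0.18 to 0.13, and Col1a2 from -0.18 to 0.0064. Over the 39 log2 fold changes named, direction held in 231 of 234 repeats under another tool, size factor, filter or set of tumors, and in 229 of 234 repeats with 1 tumor left out. These repeats share tumors and are not independent. No paired analysis was possible because the labels give no replicate numbers, and any 2 groups share at most 1 number among their tumor codes. The number 22 stands in codes of HBSS (22R, 22LL), ADU-S100 (22LR) and the combination (22), and 20LL (cyto-IL-15) and 20L (combination) also share theirs. The labels do not say what a shared number marks, and a block on it over the 12 tumors was not run. Groups of 3 limit precision, and the 12 genes under 1 CPM rest on few counts.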
